A study of Mus musculus with 9 samples.

Results

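Txnip, the 4 arrestin-domain genes Arrdc1 to Arrdc4 and the glucose-sensing factors Mlx, Mlxip and Mlxipl were examined in mouse calvarial cells before and during osteoblast differentiation. The 8 genes were taken by symbol from the 40548 genes listed for days 0 and 7 and were all among the 40526 genes listed for day 4. The group was chosen by the measured levels of its genes in these 9 libraries, so levels and stage differences are given as a description. The fits over all genes also gave calls for the members. These calls are counted below, and nothing is read from them. Of the 8 genes, 7 reached a mean of 1 CPM (reads scaled to the library total only) at days 0 and 7, and Mlxipl did not.

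The 3 stages were calvarial cells of C57BL/6 mice (C57BL/6J in the methods), which are bone-forming progenitors released from the newborn skull, before differentiation (day 0) and after 4 or 7 days in mineralization medium, which holds β-glycerol phosphate and ascorbic acid. There were 3 libraries per stage, from biological replicates, made of total RNA depleted of ribosomal RNA. All cells shared the strain and the tissue, the labels give pups 2 to 3 days old, and the methods give both sexes. Per the labels, mineralized cells were freed with collagenase I before trypsin and non-mineralized cells with trypsin alone, and the digestion and the stage cannot be told apart. Medium, its daily change and time in culture also went with the stage. The series holds no undifferentiated library at days 4 or 7, so these cannot be told apart from differentiation either. Reads on genes ranged from 7741204 to 14013219 at day 0, from 32820610 to 37306090 at day 4 and from 10675858 to 15622755 at day 7. The day 4 libraries were thus the deepest and were also deposited apart. In every comparison with day 4, stage, depth and separate deposit cannot be told apart, and such differences are description only. In bulk RNA, fewer cells of a type and less RNA per cell cannot be told apart.

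TXNIP, the thioredoxin-interacting protein, belongs to the α-arrestins, adaptor proteins with an arrestin fold that link membrane proteins to Nedd4-family ubiquitin ligases and so to endocytosis. TXNIP and ARRDC4 are known to restrain glucose uptake by promoting the internalization of the glucose transporter GLUT1, and TXNIP also binds reduced thioredoxin. Their genes are known targets of MondoA (Mlxip) and ChREBP (Mlxipl), basic helix-loop-helix factors that respond to phosphorylated glucose, enter the nucleus with their partner Mlx and bind carbohydrate response elements. In osteoblasts, glucose is the main fuel and enters chiefly through GLUT1.

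The promoters of Txnip, Arrdc4 and Mlx are shown because, among the members above the detection floor of 3 reads, their windows hold E-box or E-box-like letters, the half-sites of a carbohydrate response element. RefSeq promoter windows on GRCm38.p6 matched 8 of the 8 genes, and each was read over the 250 bases before the transcription start. Arrdc3 had 3 such starts and Mlxipl 2, and the other genes had 1. Capitals mark matches on either strand. GTAAACA is the core of a FOXO site. The CCAAT box reads ATTGG where it lies on the opposite strand. CACGTG is an E-box, and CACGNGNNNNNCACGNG is a pair of E-box-like half-sites with a 5-base spacer. No match overlapped another.
Txnip, chr3:96557707-96557956, plus strand: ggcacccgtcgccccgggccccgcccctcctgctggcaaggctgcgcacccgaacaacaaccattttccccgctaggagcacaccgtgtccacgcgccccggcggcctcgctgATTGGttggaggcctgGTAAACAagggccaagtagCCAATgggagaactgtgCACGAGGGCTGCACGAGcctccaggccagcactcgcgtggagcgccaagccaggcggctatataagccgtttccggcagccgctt
Arrdc4, chr7:68749239-68749488, minus strand: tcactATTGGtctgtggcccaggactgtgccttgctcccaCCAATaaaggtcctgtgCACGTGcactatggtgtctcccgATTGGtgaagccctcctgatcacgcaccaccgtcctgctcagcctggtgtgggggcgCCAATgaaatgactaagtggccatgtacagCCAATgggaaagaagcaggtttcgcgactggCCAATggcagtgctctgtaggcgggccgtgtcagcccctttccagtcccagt
Mlx, chr11:101087040-101087289, plus strand: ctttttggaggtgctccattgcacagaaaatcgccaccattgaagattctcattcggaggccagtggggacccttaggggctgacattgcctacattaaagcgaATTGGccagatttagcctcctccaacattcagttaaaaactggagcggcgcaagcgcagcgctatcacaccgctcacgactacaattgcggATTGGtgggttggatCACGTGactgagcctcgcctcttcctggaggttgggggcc
The Txnip window held the paired half-sites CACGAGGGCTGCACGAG at positions -85 to -69 from the start, GTAAACA at -121 to -115 and 2 CCAAT boxes. The paired form was found, on either strand, in 15 of 32851 windows (0.0457%). The Arrdc4 window held CACGTG at -193 to -188 and 6 CCAAT boxes. CACGTG also stood at -40 to -35 in Mlx and at -98 to -93 in 1 of the 2 Mlxipl windows, and it occurred in 6.02% of all windows. Of the other members, Arrdc2 had 3 CCAAT boxes, Mlx and Mlxip 2 each and Mlxipl and Arrdc3 1 each, the last from the overlapping windows of 2 of its 3 starts, against 33.8% of all windows with at least 1, and the Arrdc1 window held none of the motifs searched. GTAAACA was found in 3.17% of all windows and TATAAA in 12.4%, and no member held the exact letters TATAAA. Other forms of the TATA box were not searched, and the Txnip window reads tatataa shortly before the transcription start. The motifs were chosen with the sequences in view, and a match of letters is a description and not a bound site.

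Txnip went from a well-expressed gene at day 0 to a low one at days 4 and 7. The gene (ENSMUSG00000038393) lies at chr3:96557957-96561883 on the plus strand of GRCm38. At day 0 its level was 43.2, 56.0 and 38.4 RPKM (reads scaled to the library total and to the length of the gene model) in replicates 1 to 3, with a mean of 45.9 ± 9.14 (SD, n = 3). At day 4 it was 1.72, 1.17 and 1.68 RPKM (mean 1.52 ± 0.309, SD, n = 3). At day 7 it was 1.42, 0.957 and 2.30 RPKM (mean 1.56 ± 0.682, SD, n = 3). Every later library lay far below every day 0 library, and the libraries of days 4 and 7 overlapped.

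The mean Txnip level was 30.1 times as high at day 0 as at day 4 and 29.4 times as high as at day 7. These values rested on 901 to 2032 reads per library at day 0, 132 to 184 at day 4 and 31 to 109 at day 7. On the scale of log2(CPM + 0.5), day 7 was below day 0 by a difference of -4.79 ± 0.20 (SE of the limma fit). The difference was -4.68 relative to the median of all genes. The SE is shrunk to a trend over all genes, and the pooled SD of Txnip's own replicates at days 0 and 7 was 0.448. Day 4 was below day 0 by a difference of -4.77. The day 7 difference was the lowest of the 12712 genes tested, and the next lowest was that of Dner at -3.60. By mean RPKM Txnip ranked 985 of 21878 genes with reads at day 0, 10718 of 24563 at day 4 and 10459 of 22009 at day 7. The day 4 and day 7 differences share the day 0 libraries, so they are not independent of each other.

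The annotation places the antisense gene Gm15441 across Txnip, and 15.7% of the 50-base stretches of Txnip transcripts also occur in that gene. Gm15441 had 1 to 5 reads in each of the 9 libraries. Whether the strand entered the counting is not given in the sources used here, and reads in the shared stretch may have been set aside as ambiguous at every stage.

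Arrdc4, the closest known counterpart of Txnip in glucose uptake, was also highest at day 0, where its level was below that of Txnip. The gene (ENSMUSG00000042659) lies at chr7:68736995-68749241 on the minus strand and overlaps no other gene. Its level was 6.67, 7.27 and 4.92 RPKM in day 0 replicates 1 to 3, with a mean of 6.29 ± 1.22 (SD, n = 3). At day 4 it was 1.53, 1.60 and 1.83 RPKM (mean 1.65 ± 0.155, SD, n = 3), and at day 7 it was 1.45, 1.46 and 1.41 RPKM (mean 1.44 ± 0.0239, SD, n = 3). All day 4 libraries lay below all day 0 libraries, and all day 7 libraries lay below all day 4 libraries, the last by a small margin.

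For Arrdc4 the mean level at day 0 was 3.80 times that at day 4 and 4.37 times that at day 7, and the day 4 mean was 1.15 times the day 7 mean. Reads per library were 152 to 373 at day 0, 201 to 263 at day 4 and 62 to 88 at day 7. The log2 difference of day 7 from day 0 was -2.02 ± 0.19 (SE), or -1.91 relative to the median of all genes, which ranked 64 from the lowest of the 12712 genes. It was -1.83 for day 4 against day 0 and -0.18 for day 7 against day 4.

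**Figure D1:**
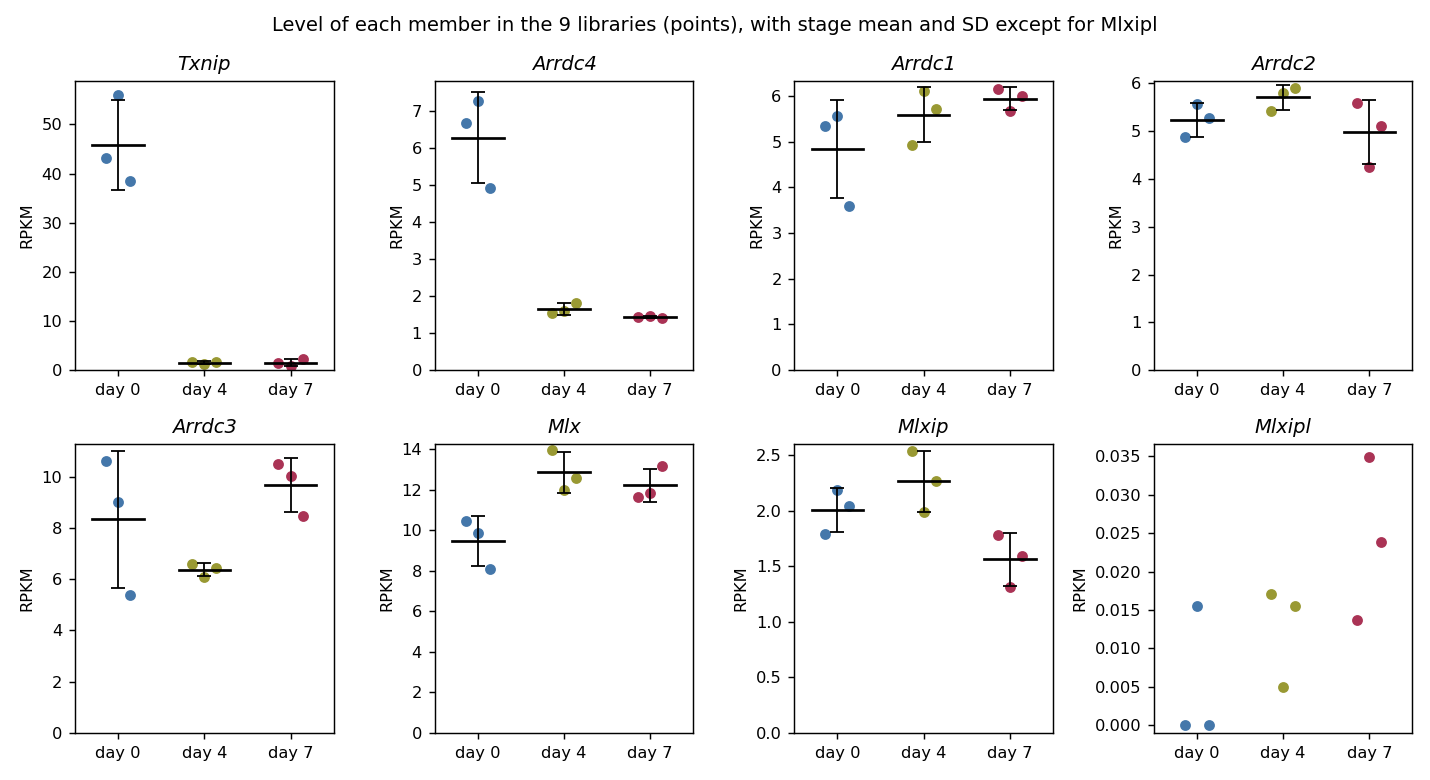
Level of each of the 8 genes in RPKM (vertical axis, its own scale in each panel) at days 0, 4 and 7; points are the 3 libraries of a stage, the short line is their mean and the error bar their SD, and Mlxipl has points only because no library exceeded 3 reads. Txnip lay between 38.4 and 56.0 RPKM at day 0 and at or below 2.30 RPKM in all 6 later libraries. Over all libraries Arrdc1 ran from 3.60 to 6.15 RPKM, Arrdc2 from 4.26 to 5.91 and Mlx from 8.07 to 13.97.

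The level of Txnip over that of Arrdc4 within a library does not depend on how libraries are scaled. It was 6.47, 7.71 and 7.80 in day 0 replicates 1 to 3, then 1.12, 0.730 and 0.921 at day 4 and 0.983, 0.658 and 1.63 at day 7. The means were 7.33 ± 0.742, 0.923 ± 0.195 and 1.09 ± 0.495 (SD, n = 3 each). Thus Txnip exceeded Arrdc4 severalfold in every day 0 library, and the 2 genes stood at about the same level per length in the later ones. The mean log2 of the ratio was lower at day 7 than at day 0 by a difference of -2.84.

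Arrdc1, Arrdc2 and Arrdc3, the other arrestin-domain genes, showed small differences beside these. Arrdc1 encodes an adaptor known for budding of microvesicles at the plasma membrane with Tsg101, and it lies at chr2:24925352-24935252 on the minus strand. Arrdc1 stood at 5.34, 5.56 and 3.60 RPKM in day 0 replicates 1 to 3, at 4.93, 6.12 and 5.72 at day 4 and at 6.15, 5.67 and 5.99 at day 7. Day 0 replicate 3 was the lowest of the 9 libraries, and all day 7 libraries were above all day 0 libraries. The log2 difference of day 7 from day 0 was 0.31 ± 0.19 (SE), and it was 0.12 without day 0 replicate 3.

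Arrdc2, a less studied α-arrestin at chr8:70835129-70839720 on the minus strand, had a steady level. Its day 0 replicates 1 to 3 gave 4.87, 5.56 and 5.27 RPKM, its day 4 replicates 5.41, 5.80 and 5.91, and its day 7 replicates 5.59, 4.26 and 5.11. The libraries of all 3 stages overlapped. The log2 difference of day 7 from day 0 was -0.07 ± 0.19 (SE), and its sign turned in 6 of 17 alternative settings, where it was at most 0.095.

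Arrdc3, an adaptor known for trafficking of integrin β4, lies at chr13:80883384-80896042 on the plus strand. Its day 0 level spread from 5.38 RPKM in replicate 3 to 9.002 in replicate 2 and 10.6 in replicate 1. The day 4 replicates 1 to 3 were closely grouped at 6.58, 6.08 and 6.44 RPKM, and the day 7 replicates lay at 10.5, 10.02 and 8.48 RPKM. All day 7 libraries were above all day 4 libraries, with a log2 difference of 0.59, whereas day 0 overlapped both later stages. Day 7 differed from day 0 by 0.26 ± 0.18 (SE) on the log2 scale, and by -0.02 without day 0 replicate 3. The pooled SD of its own replicates at days 0 and 7 was 0.375 on this scale. The opposite-strand gene 1700023H06Rik overlaps Arrdc3 and had 8 to 36 reads per library.

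Txnip made up most of the summed RPKM of the 5 α-arrestin genes at day 0 and a small share later. Its share was 61.1%, 67.2% and 66.7% in day 0 replicates 1 to 3, 8.52%, 5.62% and 7.80% at day 4 and 5.67%, 4.28% and 9.88% at day 7. The summed level of the 5 genes was 70.5 ± 12.9 RPKM before differentiation, then 20.8 ± 0.707 RPKM on day 4 and 23.6 ± 1.40 RPKM on day 7 (SD, n = 3 each). Without Txnip, the sum of Arrdc1 to Arrdc4 was 24.7 ± 4.78, 19.3 ± 0.759 and 22.0 ± 1.46 RPKM, so the drop of the summed level lay mostly in Txnip. Arrdc3 took the largest mean share at both later stages, with 30.6% ± 1.79 at day 4 and 41.0% ± 4.25 at day 7, against 11.7% ± 2.94 at day 0. Arrdc4 kept a mean share between 6.11% and 8.90%.

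**Figure D2:**
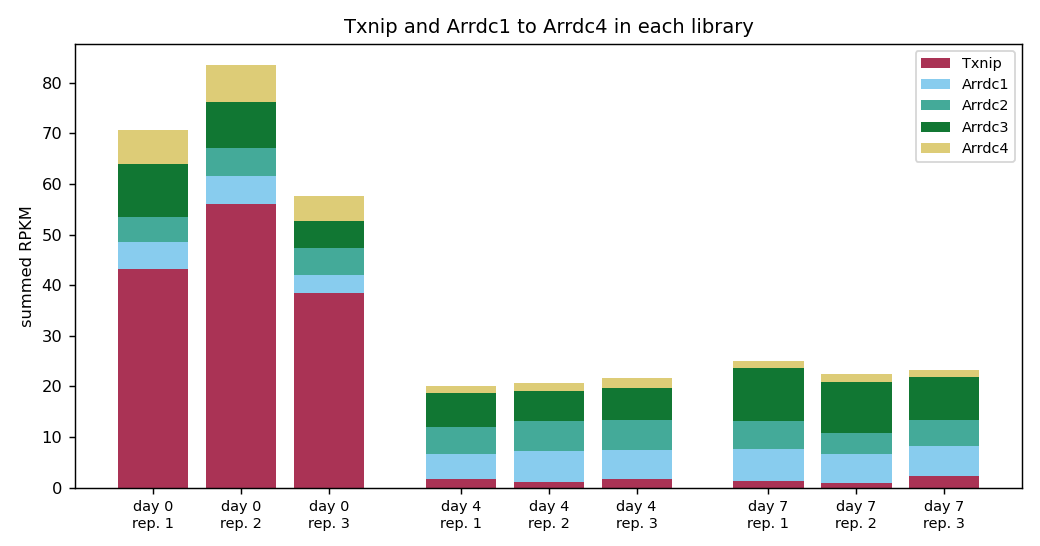
Summed RPKM of Txnip and Arrdc1 to Arrdc4 (vertical axis) in each of the 9 libraries (horizontal axis), with the colours of each bar giving the genes. Txnip fills 61.1% to 67.2% of the bar at day 0 and 4.28% to 9.88% at days 4 and 7, while the summed height of the other genes stays between 18.5 and 27.5 RPKM.

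The sensing factors were of very unequal level. Mlx, the shared partner that both sensors need to bind DNA, was the most abundant of them and lies at chr11:101087277-101092207 on the plus strand. It stood at 10.5, 9.87 and 8.07 RPKM in day 0 replicates 1 to 3, at 13.97, 11.99 and 12.6 at day 4 and at 11.6, 11.8 and 13.2 at day 7. Every library of days 4 and 7 lay above every day 0 library, and days 4 and 7 overlapped. The log2 difference was 0.44 for day 4 against day 0 and 0.37 ± 0.17 (SE) for day 7 against day 0. Psmc3ip, on the opposite strand, shares 15.8% of the 50-base stretches of Mlx and had 37 to 156 reads per library. The level of Mlx is uncertain for this reason, by an amount that was not measured.

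Mlxip, which encodes MondoA, the sensor of most tissues outside liver and fat, was detected at every stage at a low level and lies at chr5:123394798-123457932 on the plus strand. The annotation places Gm15747 on the opposite strand and Gm42907, Gm42908 and Gm43813 on the same strand across Mlxip. Of its 50-base stretches, 2.91% also occur in other genes, and the effect on its level was not measured. Mlxip levels were as follows. The gene gave 1.79, 2.19 and 2.05 RPKM in day 0 replicates 1 to 3, then 2.54, 1.99 and 2.27 at day 4 and 1.78, 1.31 and 1.60 at day 7. All day 7 libraries lay below all libraries of days 0 and 4, although the highest at day 7 (1.78) and the lowest at day 0 (1.79) were close, and days 0 and 4 overlapped. The log2 difference of day 7 was -0.35 ± 0.18 (SE) from day 0 and -0.52 from day 4.

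Mlxipl, which encodes ChREBP, the sensor best known from liver and fat, was at the edge of detection. It had 0 or 1 reads in the day 0 libraries, 1 to 3 in the day 4 libraries and 1 or 2 in the day 7 libraries. No library exceeded the floor of 3 reads, so no difference between stages is given. The gene lies at chr5:135089890-135138382 on the plus strand. Among the sensors, reads of Mlxip were thus detected in all 9 libraries above the floor and those of Mlxipl in none.

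Mlx exceeded Mlxip in each library, by 5.84, 4.51 and 3.95 times at day 0, by 5.50, 6.02 and 5.53 times at day 4 and by 6.53, 9.03 and 8.23 times at day 7. The mean ratio was 4.76 ± 0.972, 5.68 ± 0.295 and 7.93 ± 1.28 (SD, n = 3 each). The day 7 ratios were all above those of the earlier stages, and those of days 0 and 4 overlapped.

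The order of the 8 levels per length differed between stages mainly by the place of Txnip. At day 0 Txnip was followed by Mlx, Arrdc3, Arrdc4, Arrdc2, Arrdc1, Mlxip and Mlxipl, and neighbours from Mlx to Arrdc1 overlapped. At day 4 the order was Mlx, Arrdc3, Arrdc2, Arrdc1, Mlxip, Arrdc4, Txnip and Mlxipl, where Arrdc2 overlapped Arrdc1 and Arrdc4 overlapped Txnip. At day 7 it was Mlx, Arrdc3, Arrdc1, Arrdc2, Mlxip, Txnip, Arrdc4 and Mlxipl, where Txnip overlapped both Mlxip and Arrdc4. All other neighbours stood apart in all libraries of their stage.

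Against the whole table, the members are described as follows. By limma at an adjusted p under 0.05, 31.2% of the 12712 genes differed between days 7 and 0, with 12.6% higher and 18.6% lower at day 7. Of the 7 members tested, 2 passed as lower (Txnip and Arrdc4) and 0 as higher, and since these values chose the members nothing is read from the count. At an unadjusted p under 0.05, 1 member was higher and 2 lower. edgeR's quasi-likelihood test on recovered reads gave 2 and 2 (2818 and 2650 of all 12712 genes). DESeq2 gave 3 and 2 (2581 and 2329 of all genes). These counts, and the library counts that follow, rest on the same values, so they are description only and nothing is read from them. At day 4, 1 of 7 members had all libraries above those of day 0 (21.4% of all genes) and 2 had all below (22.0%), or 3 in either direction (43.4%). At day 7, 2 members had all libraries above those of day 0 (16.9%) and 3 all below (25.4%), or 5 in either direction (42.3%). From day 4 to day 7, 1 member was above in all libraries (13.7%) and 2 were below (25.0%), or 3 in either direction (38.7%).

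As deposited, the median gene had a log2 difference of -0.11, which median-of-ratios scaling moved to -0.01. The share of called genes that were higher was 40.3% as deposited, 50.9% with TMM scaling and 52.1% with median-of-ratios scaling. It was 25.4% without day 0 replicate 3, when 4696 genes were lower in place of 2369, while 1527 were lower without day 0 replicate 2 and 1548 without day 7 replicate 2. Relative to the median gene, the differences were 0.42 for Arrdc1, 0.04 for Arrdc2, 0.37 for Arrdc3, 0.48 for Mlx and -0.24 for Mlxip. Over 17 alternative settings the Txnip difference lay between -5.09 and -4.52 and that of Arrdc4 between -2.18 and -1.79.

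**Figure D3:**
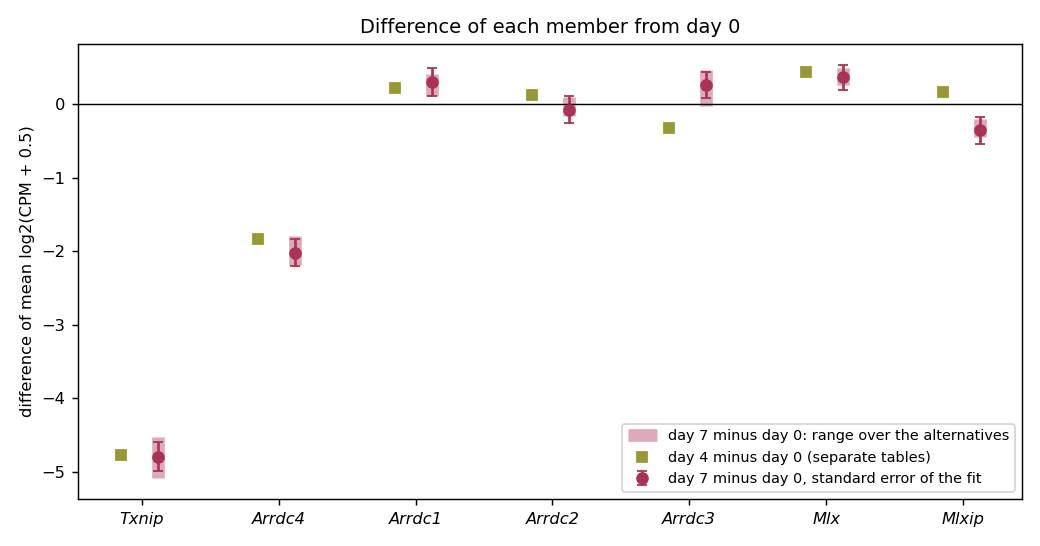
Difference in mean log2(CPM + 0.5) from day 0 (vertical axis) of the 7 tested members; circles give day 7 with the SE of the fit, squares give day 4, and the pale bars span the 17 alternative settings for day 7. Txnip (-4.79) and Arrdc4 (-2.02) lie far below 0, and the other 5 genes lie between -0.35 and 0.37 at day 7.

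The genes with the pattern most like that of Txnip were sought by the root mean square difference of log2(CPM + 0.5), centred on each gene's own mean, over the 9 libraries and 12782 genes. The nearest were Dner (0.722), a transmembrane ligand of Notch receptors, Ptx3 (0.909), a secreted pentraxin of innate immunity, Dach2 (1.05), Ptchd4 (1.07) and Pnma2 (1.17). Dner stood at 5.37, 0.525 and 0.357 RPKM at days 0, 4 and 7, and Ptx3 at 106, 14.2 and 12.5 RPKM. Even the nearest gene had a smaller span than Txnip, and Arrdc4 was only the 32nd nearest at 1.38. Dach2 and Pnma2 had mean levels below 1 RPKM at every stage.

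Arrdc4 had much closer neighbours. They were Fsd1 (0.127), Abca9 (0.139), a membrane transporter of the ABC family, Adra1b (0.160), an α1-adrenergic receptor, Rragb (0.184), a Rag GTPase of amino acid signalling to mTORC1, and Sema3c (0.205), a secreted semaphorin. Fsd1 stood at 3.87, 0.975 and 0.839 RPKM at days 0, 4 and 7, and Abca9 at 7.84, 2.13 and 1.84 RPKM. Seen from Arrdc4, Txnip was the 11898th nearest of 12782 genes, since its span was so much larger. The points of each comparison share libraries and depth, and the distances carry no test.

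**Figure D4:**
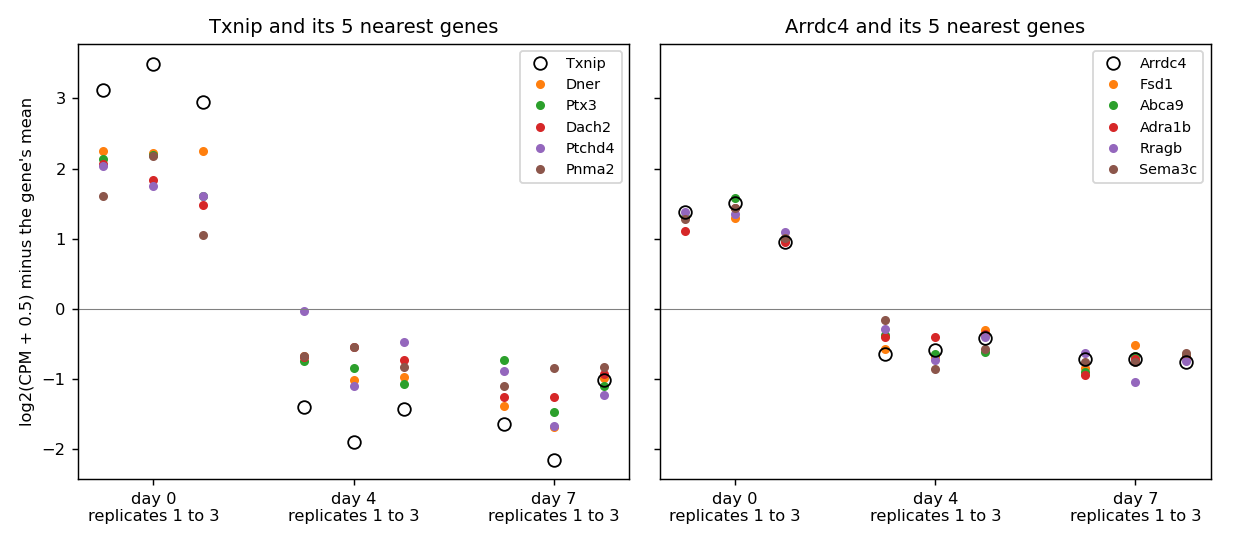
Level of Txnip (left) and Arrdc4 (right) and of the 5 genes nearest to each, as log2(CPM + 0.5) minus the gene's mean over the 9 libraries (vertical axis), by library (horizontal axis). The neighbours of Txnip lie inside its span, from 0.722 to 1.17 away, and those of Arrdc4 lie close to it, from 0.127 to 0.205 away.

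The genes around the members were described by 9 lists with 98 genes, of which 80 were tested at day 7 against day 0 in the limma fit over all genes. Of these, 17 rose and 16 fell, and 47 did not pass an adjusted p of 0.05, with a median log2 difference of 0.02 against -0.11 over all genes. The limma background, for each list below as well, was 12.6% higher and 18.6% lower. Without day 0 replicate 2, 9 list genes were lower (1527 of all 12712 genes), and without day 7 replicate 3, 10 were (1670 of all genes). edgeR on recovered reads called 26 list genes higher. Of all 12712 genes, edgeR called 2818 higher and 2650 lower, and DESeq2 called 2581 higher and 2329 lower.

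Among the known glucose-responsive targets other than Txnip and Arrdc4, 4 of 15 tested rose and 4 fell (median 0.23). Rgs16, a regulator of G-protein signalling, rose by 2.84 ± 0.22 on the log2 scale (SE, limma adjusted p = 4.46e-15), from 1.27 RPKM at day 0 to 33.9 at day 4 and 10.5 at day 7. Bhlhe40, a basic helix-loop-helix repressor, rose by 2.00 (adjusted p = 9.36e-15), Fgf21, a metabolic hormone, by 0.88 and Khk, ketohexokinase, by 0.74, the last with an adjusted p of 0.0832 without day 7 replicate 3. The genes that fell were the lipogenic enzymes Elovl6 (-1.77, adjusted p = 1.89e-12), Acly (-0.97), Acaca (-0.73) and Fasn (-0.73). Thus these targets did not share 1 direction, and none of those tested was as far below day 0 as Arrdc4. edgeR called 7 of them higher and 4 lower, against 2818 higher and 2650 lower of all 12712 genes.

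In the Max and Mlx network, 4 of 9 tested genes rose and 0 fell (median 0.13), against 12.6% higher and 18.6% lower of all genes. Mxi1 (1.60) and Mxd1 (1.09), repressors that compete with Myc for Max and of which Mxd1 can also pair with Mlx, had the largest rises, with adjusted p of 1.54e-10 and 2.73e-06 by limma. Mycn (0.89) and Myc (0.52) rose as well, but their calls were lost without day 7 replicate 1 (adjusted p = 0.0805 and 0.132), without day 7 replicate 3 (0.148 and 0.0583) and without day 0 replicate 3 for Mycn (0.0759) or day 0 replicate 1 for Myc (0.108). Mxd4 (-0.32) and Mnt (-0.10), which like Mxd1 can pair with Mlx, did not pass. At an unadjusted p under 0.05, 1 gene of the network was lower, and DESeq2 called 1 and edgeR 0.

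Of the thioredoxin system and the partners of TXNIP, 5 of 7 genes were tested, with 1 higher, 1 lower and a median of 0.02. Txn1, the thioredoxin that TXNIP binds, stood at 160, 154 and 153 RPKM at days 0, 4 and 7, with a log2 difference of -0.07 at day 7. Txnrd1, the reductase that recycles it, fell by 1.01 (adjusted p = 6.47e-07), from 63.1 to 45.3 and 31.1 RPKM. Ddit4, a stress-induced inhibitor of mTORC1 that binds TXNIP, rose by 0.51 (adjusted p = 0.0113, and 0.125 without day 7 replicate 1).

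The ligases that α-arrestins recruit showed small differences. Of 8 tested Nedd4-family genes, Wwp2 rose by 0.44, Nedd4 fell by 0.56, Wwp1 by 0.53 and Smurf1 by 0.49, and the median was 0.06. Each of these calls was lost without day 0 replicate 2, with adjusted p from 0.0574 for Nedd4 to 0.0765 for Wwp2, and without day 7 replicate 3, with adjusted p from 0.0531 for Wwp1 to 0.117 for Smurf1. The call of Wwp2 was also lost without day 7 replicate 1 (0.206), with the replicate number as a block (0.0596) and with the RPKM table (0.05001), and that of Nedd4 with all genes that had reads in the fit (0.114).

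Cargo of the α-arrestins included both glucose transporters on the list, and the RNA of both genes rose. Any link of these RNA levels to the lower Txnip and Arrdc4 was not tested. Slc2a1, which encodes GLUT1, had 22.6 ± 2.30 RPKM before differentiation and 108 ± 33.8 and 93.4 ± 21.6 RPKM at days 4 and 7 (SD, n = 3 each), and by day 7 its log2 level rose by 2.02 ± 0.16 (SE, adjusted p = 1.72e-14). Slc2a3, which encodes GLUT3, went from 0.944 to 7.74 and 5.27 RPKM, a rise of 2.38 (adjusted p = 3.87e-15). Itgb4, the gene of a cargo of ARRDC3, rose by 0.89 from a low level. It had 0.623 RPKM at day 0 and 1.20 at day 7, on 25 to 241 reads per library. In all, 3 of 8 cargo and sorting genes rose and 1 fell, with a median of -0.03, and the vesicle partner Tsg101 differed by -0.08.

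Of the other genes with an arrestin fold, Arrb1, a β-arrestin that desensitizes G-protein-coupled receptors, rose by 2.56 ± 0.18 (SE, adjusted p = 1.45e-16), from 0.977 RPKM at day 0 to 8.43 at day 4 and 6.06 at day 7. Its relative Arrb2 differed by -0.21 and did not pass. Vps26c fell by 0.49, but the call was lost in 4 of the 6 fits that left out 1 library (replicates 1 and 2 of both days, adjusted p from 0.0698 to 0.122). Arrdc5, the remaining arrestin-domain gene on the list, had 0 reads in all 9 libraries.

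Among AMPK and other glucose sensors, 0 of 11 tested genes rose by limma and 3 fell (median -0.11), while 0 were higher at an unadjusted p under 0.05, 1 by edgeR and 1 by DESeq2. Mgea5, the enzyme that removes O-GlcNAc, fell by 1.05 (adjusted p = 4.38e-07). Gfpt2, of the hexosamine pathway, fell by 0.54 and Stk11, the AMPK kinase LKB1, by 0.43. The call of Gfpt2 was lost in 4 of the 6 fits that left out 1 library (day 0 replicates 1 and 2, day 7 replicates 2 and 3, with adjusted p from 0.0558 to 0.134). That of Stk11 was lost without any single library but day 0 replicate 3 (adjusted p from 0.0559 to 0.270), with the replicate number as a block (0.0679), with all genes that had reads (0.0578) and with the RPKM table (0.0644).

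Of 12 FOXO factors and targets, 3 rose and 3 fell (median -0.07). Sesn3, a sestrin, fell by 2.18 (adjusted p = 2.1e-16), from 60.5 RPKM at day 0 to 25.5 and 13.2, and Sesn1 fell by 1.15. Cited2 fell by 0.48, with the call lost in 5 of the 6 fits without 1 library (all but day 0 replicate 3, adjusted p from 0.0554 to 0.170) and with the replicate block (0.0609). Foxo6 rose by 1.75 from a low level, with 0.0757, 0.475 and 0.709 RPKM at days 0, 4 and 7 on 1 to 52 reads per library. Pik3ip1, an inhibitor of PI3-kinase, rose by 1.47 and the cyclin Ccng2 by 0.61, the last with an adjusted p of 0.0705 without day 7 replicate 1. Of the 7 tested genes of the glucocorticoid receptor list, 0 passed in either direction by limma or at an unadjusted p under 0.05, and edgeR and DESeq2 each called 2 higher and 0 lower (median 0.13).

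**Figure D5:**
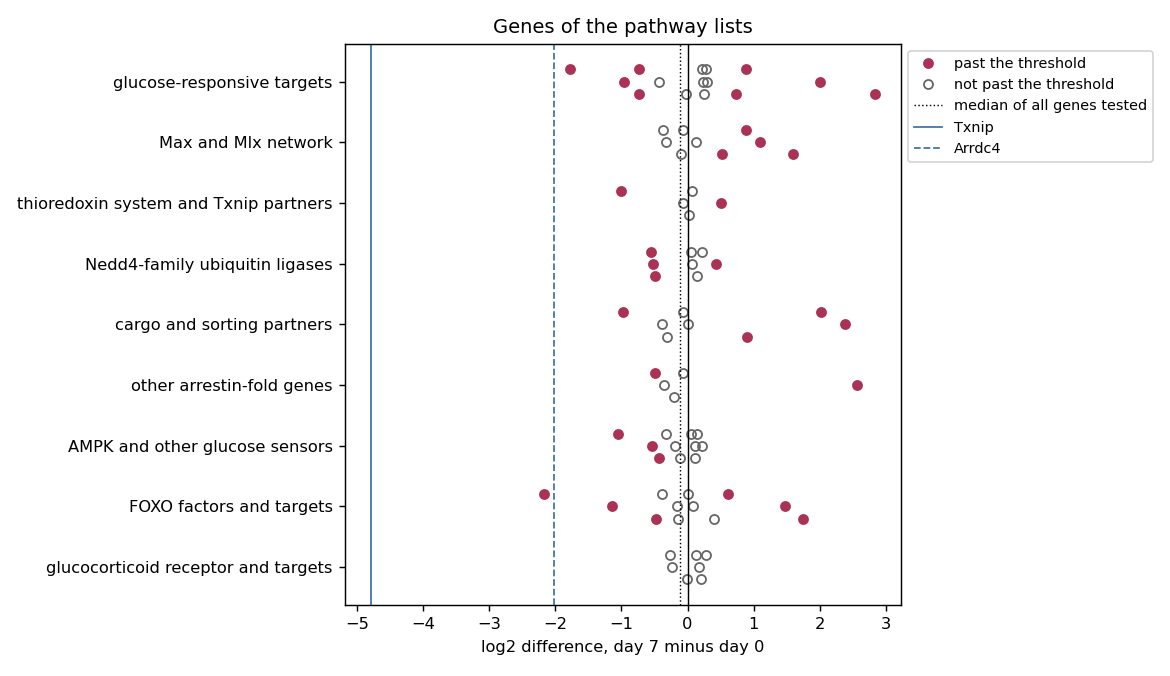
Log2 difference of day 7 from day 0 (horizontal axis) of the tested genes of the 9 lists (rows, with points spread vertically for legibility), filled where the limma adjusted p was under 0.05; the dotted line is the median of all genes (-0.11), and the blue lines are Txnip (-4.79) and Arrdc4 (-2.02). List genes fall on both sides of 0, and 1 of the 80, Sesn3 (-2.18), lies below Arrdc4.

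Markers of the cells moved with the stage, and their part in the levels of the members was not tested. Of 8 osteoblast markers, 7 rose at day 7 (Runx2 did not pass), and their summed level was 11692 to 16400 CPM at day 0, 31966 to 35833 at day 4 and 39437 to 49931 at day 7. Col1a1 had the highest level of them and weighs most in this sum, at 2158, 4716 and 5475 RPKM at days 0, 4 and 7. Of 8 proliferation genes, 7 fell (Cdk1 did not pass), and their sum was 519 to 800 CPM at day 0, 315 to 415 at day 4 and 377 to 437 at day 7. Of 8 genes of the dissociation response, 3 rose and 1 fell, and their sum was 192 to 227, 462 to 584 and 229 to 324 CPM. All 6 macrophage markers rose, with sums of 15.3 to 27.7, 32.8 to 39.4 and 36.7 to 44.3 CPM. Osteoclast markers (2 rose and 1 fell of 3 tested) summed to 152 to 200, 352 to 362 and 347 to 363 CPM. Among them Ctsk had by far the highest level, at 120, 231 and 232 RPKM at days 0, 4 and 7. From day 0 to day 7, Acp5 rose from 0.745 to 6.59 RPKM and Mmp9 fell from 0.708 to 0.335 RPKM. Calcr, Ocstamp and Dcstamp were too low to be tested. Of the chondrocyte markers, 1 rose (Acan) and 3 fell of 4 tested, with sums of 934 to 2713, 308 to 983 and 265 to 754 CPM. Col2a1 had the highest level of them and weighs most in this sum, at 239, 81.1 and 53.5 RPKM at days 0, 4 and 7. Of the muscle markers both tested genes rose, with sums of 2.97 to 4.99, 10.7 to 16.1 and 8.56 to 13.9 CPM. Endothelial markers stayed at or below 2.34 CPM in sum and adipocyte markers at or below 2.17 CPM in every library, with Tie1, Lep and Cidec at 0 in all.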

How the data were processed

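RNA-seq values of 9 calvarial cell libraries (3 each at days 0, 4 and 7) were used. Per the methods and the submitters' processing notes, the authors aligned reads to the Ensembl release 76 assembly (GRCm38) with STAR 2.0.4b and counted unique, unambiguous reads per gene with featureCounts. The authors deposited CPM values, scaled to each library's total, and deposited RPKM values, also divided by gene model length. Days 0 and 7 share a table, and day 4 has its own, so day 4 entered no test. Of the CPM values worth under 5000 reads, 100% came out as whole reads (tolerance 0.01). Lines repeating a gene were used once.

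The test of day 7 against day 0 used limma 3.58.1 (R 4.3.3, mean-variance trend) on log2(CPM + 0.5), over 12712 genes whose CPM averaged 1 or more, with Benjamini-Hochberg adjustment. On this scale the changes of low genes are understated. The filter left out 11075 genes with reads. Variances were shrunk to the trend with 42.9 prior and 4 residual degrees of freedom. The common trend thus outweighs a gene's own replicates in each SE of the fit and in each p-value. The script was tested on simulated data. Count tests (edgeR 4.0.16, DESeq2 1.42.0, voomWithQualityWeights) were run on the recovered reads as alternatives. Depth limits Mlxipl, and the floor of 3 reads covers counting error only. No 2 replicates agreed within sampling noise (chi-square over its degrees of freedom at least 11.7).

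Members and lists were chosen with earlier results of these data known. Named were all members, for each list the 3 largest rises and falls past the threshold, any gene of a list of 10 or fewer, and the 5 genes nearest to Txnip and to Arrdc4. Khk and Fasn were named after their values were seen, and 1 gene of the cargo list is not reported here. Gene positions come from GENCODE M21 (GRCm38), which matched 40254 identifiers. Alternatives were pseudocounts, filters, scalings, the RPKM table, a replicate block, other tools and leaving out each library.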

Additional observations from a re-analysis of the deposited data

How the results depend on the processing

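At day 7 against day 0, Txnip, Arrdc1, Arrdc4, Mlx and Mlxip kept their direction in all 17 alternatives, Arrdc3 turned only without day 0 replicate 3 (-0.02), and Mlxipl, at the floor, has no value. The difference of Arrdc2 moved from -0.07 to 0.095 with voomWithQualityWeights, and that of Arrdc4 from -2.02 to -1.79 with the RPKM table. The count of all genes higher moved from 1602 to 2773 with TMM scaling, 2843 with median-of-ratios scaling, 2818 with edgeR, 2581 with DESeq2 and 3148 with voomWithQualityWeights, and that of list genes from 17 to 26 with edgeR and 28 with voomWithQualityWeights. Leaving out 1 library gave 1527 to 4696 genes lower and 9 to 24 list genes lower, and the cause was not tested. The other alternative values, 333 in all, stayed within the spread between replicates or within 1.5 times the count. With the replicate number as a block, the fit called 1463 genes higher and 1950 lower. The same-numbered libraries of days 0 and 7 had correlations of their deviations of -0.0158, -0.1731 and -0.4351, so the numbers were taken as labels only and not as pairs, and no library of day 0 correlated best with its own number. Depth limits Mlxipl, with at most 3 reads in a library, and Txnip at day 7, with 31 reads in the lowest.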
